A study of Mus musculus with 12 samples.

Results

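NS-DADm hearts are mouse hearts that the labels describe as holding an inactive HDAC3, and they were compared here with wild-type (WT) hearts of the same experiment. They make up 3 libraries of the NS-DADm genotype and 3 WT libraries of their own, which are 6 of the 12 libraries of the study, all of total RNA from mouse heart. The other 6 are hearts with the genotype HDAC3 KO (knockout) and a separate WT group, 3 libraries each, and are used below only for the test of a difference between the mutants. The labels state neither age, sex, strain and treatment nor the Cre or promoter of any allele, and titles number the samples as biological replicates with no word on the animals. The tests therefore rest on differences among 3 libraries a group, part of which may be technical. Expression was given as FPKM, fragments per kilobase of transcript and per mega-fragment of library. All genes with at least 1 FPKM in 3 or more of the 6 libraries were taken, which are 11705 of the 17833 usable genes in the NS-DADm table and of 19405 genes in the whole study.

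HDAC3 removes acetyl groups from histones, and it does so inside corepressor complexes such as the one built on NCOR1, together with TBL1X, TBL1XR1 and GPS2. The enzyme is switched on by binding the deacetylase-activating domain (DAD) of such a corepressor. In NS-DADm mice this domain is mutated in the corepressors, so that HDAC3 protein is still made but is not activated, and the lesion lies in the corepressor genes of the whole animal and not in one cell type of the heart. Unliganded nuclear receptors recruit these complexes to DNA. The series sets these hearts beside HDAC3 KO hearts to ask which functions of HDAC3 in the adult heart need its enzyme activity.

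The libraries had similar sums of FPKM, 533830.2 to 550284.0 in NS-DADm and 531362.2 to 560144.3 in WT hearts, with 11429 to 11691 and 11524 to 11699 genes at 1 FPKM or more. Low FPKM values rise in steps of whole fragments, from which a depth over the listed genes of 11.7 to 12.1 M fragments (M, mega) was estimated for NS-DADm and of 9.7 to 10.7 M fragments for WT libraries. Libraries of the same group correlated at 0.988 to 0.994 and libraries of different groups at 0.98 to 0.99 (Pearson's r of log2 values, across genes), and no pair of libraries was a repeat. Cardiomyocyte markers had a summed level of 69710 ± 2149 FPKM in NS-DADm and 69620 ± 3486 FPKM in WT hearts (SD, n = 3 each), as the heart label says. The libraries differed in the level of atrial marker genes, and whether they held different amounts of atrial tissue was not tested. Atrial marker genes summed to 4440.6, 1007.4 and 7373.3 FPKM in NS-DADm replicates 1, 2 and 3, against 1037.4, 808.7 and 5398.9 FPKM in WT replicates 1, 2 and 3. Nppa, which encodes atrial natriuretic peptide, ran from 369.76 to 4203.68 FPKM in NS-DADm and from 243.31 to 2728.12 FPKM in WT hearts. NS-DADm replicate 3 also carried the most adipose RNA, with Adipoq at 25.4 FPKM against 0.51 to 8.02 FPKM in the other 5 libraries. For this reason the atrial-poor libraries (NS-DADm replicate 2, WT replicates 1 and 2) and the atrial-rich ones (NS-DADm replicates 1 and 3, WT replicate 3) were also compared on their own, and a term for the atrial marker sum was added to the fit, as alternatives chosen after seeing the data.

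**Figure D1:**
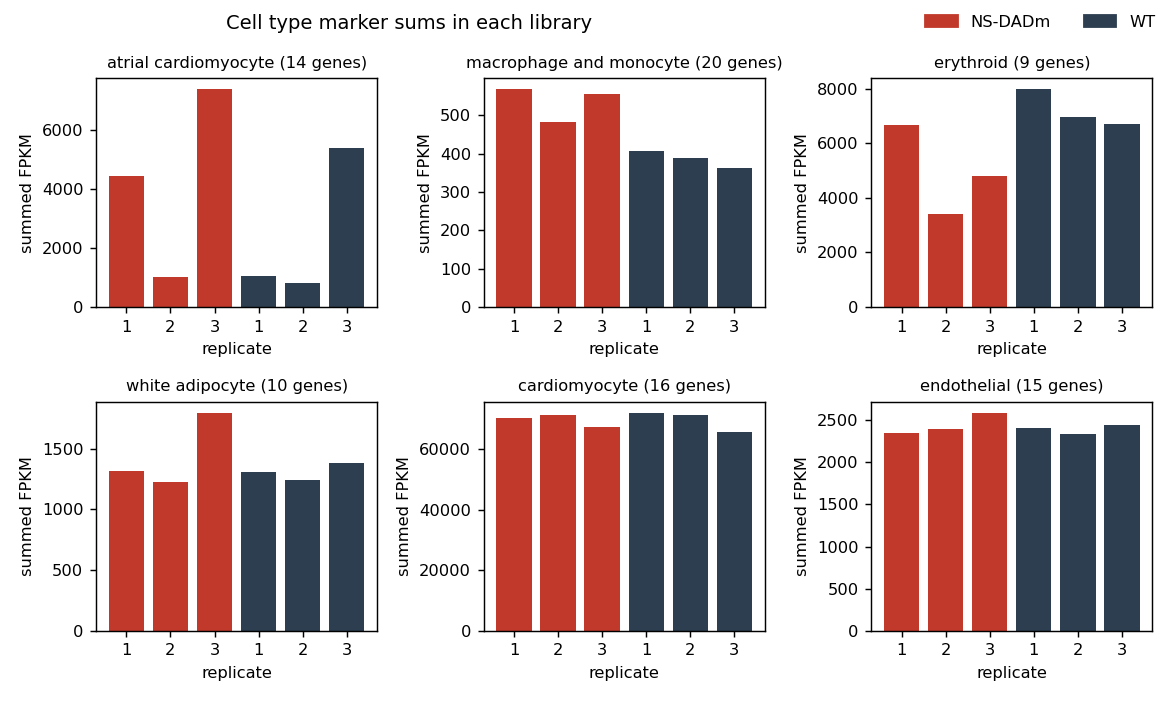
Summed FPKM of 6 lists of cell type markers in each library, NS-DADm in red and WT in dark blue, with the replicate number on the horizontal axis. Atrial markers split the 6 libraries into 3 rich and 3 poor ones across both genotypes, while the macrophage sum lay at 482.3 FPKM or more in all NS-DADm libraries and at 407.4 FPKM or less in all WT libraries.

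Of the 11705 genes tested with limma on log2(FPKM + 1), 315 passed a Benjamini-Hochberg adjusted p under 0.05, which is 2.69% of those tested. In NS-DADm hearts 148 genes were higher (1.26%) and 167 lower (1.43%), and the median log2 fold change of all tested genes was -0.02. Without the adjustment 2153 genes had p under 0.05. The count moved with single libraries. It was 148, 216 and 216 without NS-DADm replicate 1, 2 and 3, and 99, 84 and 248 without WT replicate 1, 2 and 3, and 67 of the 315 genes were called in all 6 of these fits. Among the 315, 8 passed the filter only through the NS-DADm libraries and 15 only through the WT libraries. Such genes could not be tested when a library of that group was left out, so they could not be called in all 6. With the term for atrial markers 238 of the 315 genes were still called. Of 282 called genes that could be measured in both sets of libraries, 282 kept their direction in the atrial-poor and in the atrial-rich libraries. Both sets come from the 6 libraries that made the calls. A called gene whose groups do not overlap must keep its direction in both, so this count is no independent check. These sets hold 1 or 2 libraries of each genotype, and in the fits on them 182 and 41 genes were called. The authors' deposited table gives a q-value under 0.05 and a change of more than 25% for 433 genes, 249 higher and 184 lower in NS-DADm hearts. They share 245 genes with the 315 called here, which are 77.8% of the calls here and 56.6% of the authors'.

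Of the 6 genes of the corepressor complex itself, 1 was called. Hdac3 was at 30.57, 28.98 and 29.98 FPKM in NS-DADm hearts, against 32.05, 29.02 and 28.21 FPKM in WT hearts. The groups overlapped, and the log2 fold change was 0.01 ± 0.07 (SE; limma adjusted p = 0.975). Ncor1, whose start lies on chromosome 11 at 62316426 (GRCm38.p6), was at 23.13, 24.91 and 24.84 FPKM in NS-DADm and at 23.3, 21.55 and 23.73 FPKM in WT hearts (limma adjusted p = 0.541). Because the DAD mutations change amino acids, these levels neither check nor contradict the genotype label. Tbl1xr1, which encodes a WD40-repeat subunit that helps exchange corepressors for coactivators, was the member that rose. It had 12.06, 11.54 and 13.04 FPKM in NS-DADm hearts, against 7.0, 6.5 and 6.91 FPKM in WT hearts. All 3 mutant libraries lay above all 3 WT libraries, at a ratio of means of 1.79 and a log2 fold change of 0.76 ± 0.08 (SE; limma adjusted p = 0.00146, at most 0.0104 with any library left out). Its partner Tbl1x was at 13.61, 11.19 and 11.45 FPKM in NS-DADm and at 9.95, 9.42 and 10.64 FPKM in WT hearts, and Gps2 at 28.1 ± 1.76 and 26.5 ± 0.286 FPKM (SD, n = 3 each), with limma adjusted p = 0.178 and 0.543. Of the other class I deacetylases, Hdac1 was at 14.4 ± 0.644 FPKM in NS-DADm and 13.1 ± 0.975 FPKM in WT hearts (limma adjusted p = 0.386). Hdac2 was at 31.0, 28.83 and 27.05 FPKM in NS-DADm hearts, against 35.58, 36.36 and 34.57 FPKM in WT hearts, which do not overlap but missed the threshold (limma adjusted p = 0.0579). Among 10 other histone deacetylase genes only Hdac9, a class IIa enzyme with weak catalysis of its own, was called, at 4.87 ± 0.552 FPKM in NS-DADm and 7.06 ± 0.195 FPKM in WT hearts (limma adjusted p = 0.0326). It kept its call only without NS-DADm replicate 3 and was at an adjusted p of up to 0.122 in the other 5 fits with a library left out.

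The largest differences were losses of a few transcripts. Pttg1, which encodes securin, the inhibitor of separase in the cell cycle, lies on chromosome 11 from 43420250 to 43426251 (minus strand). It was at 4.41, 3.72 and 5.87 FPKM in NS-DADm hearts, against 148.05, 141.87 and 131.13 FPKM in WT hearts, so it was 30.1-fold lower (log2 fold change -4.66 ± 0.127, SE, limma adjusted p = 8.9e-07). Cyfip2, a subunit of the WAVE complex that drives actin branching, lies on the same chromosome from 46193850 to 46312859 (minus strand). It was at 2.58, 2.94 and 2.34 FPKM in NS-DADm hearts, against 44.54, 46.18 and 39.82 FPKM in WT hearts, 16.6-fold lower (log2 fold change -3.62 ± 0.0878, SE, limma adjusted p = 8.85e-08). Neither gene had a library near the other group. Ndrg4, a member of the NDRG family that is abundant in heart and brain, lies on chromosome 8 from 95676980 to 95715119 (plus strand). It was at 25.1, 19.12 and 28.41 FPKM in NS-DADm hearts, against 109.71, 99.67 and 111.79 FPKM in WT hearts, 4.42-fold lower (log2 fold change -2.12 ± 0.128, SE, limma adjusted p = 0.000313). The Efnb3 gene, which encodes the membrane ligand ephrin-B3, was at 18.3 ± 2.2 FPKM in NS-DADm and 40.7 ± 1.89 FPKM in WT hearts (SD, n = 3 each), and Gpr22, an orphan receptor of the heart, at 8.99 ± 0.248 and 19.5 ± 2.36 FPKM (limma adjusted p = 0.000365 and 0.000611). The RNA-binding protein gene Rbpms2 was at 15.4 ± 1.91 FPKM in NS-DADm and 31.2 ± 0.392 FPKM in WT hearts, and Gm2a, which encodes the activator of ganglioside breakdown, at 4.64 ± 0.744 and 9.8 ± 0.751 FPKM (limma adjusted p = 0.000606 and 0.00352). Lrrc15, Bex1 and Zfp932 were also among the largest falls, at WT to NS-DADm ratios of 2.45, 2.89 and 2.41. Olfr1396, an olfactory receptor gene of chromosome 11, had empty cells in all 3 NS-DADm libraries, which were taken as 0. It was at 1.33, 1.41 and 1.07 FPKM in WT hearts. As it and Kcne1 passed the filter on low values only through the WT libraries, they could only fall.

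Among the largest rises, Nnt stood out by its level. Nnt encodes the nicotinamide nucleotide transhydrogenase of the inner mitochondrial membrane, which makes NADPH, and lies on chromosome 13 from 119335448 to 119408997 (minus strand). It was at 463.35, 483.43 and 422.91 FPKM in NS-DADm hearts, against 191.42, 201.16 and 190.17 FPKM in WT hearts, 2.35-fold higher (log2 fold change 1.23 ± 0.0656, SE, limma adjusted p = 3.15e-05). The C57BL/6J strain is known to carry a deletion in this gene, and the labels do not name the strain of either group. Myot encodes myotilin, a Z-disc protein that bundles actin. It was at 78.52, 97.31 and 102.18 FPKM in NS-DADm hearts, against 25.88, 32.52 and 29.5 FPKM in WT hearts, 3.16-fold higher (log2 fold change 1.62 ± 0.112, SE, limma adjusted p = 0.000313). Wdfy1, an endosomal protein with WD and FYVE domains, was at 10.45, 8.04 and 10.53 FPKM in NS-DADm hearts, against 2.42, 2.92 and 2.68 FPKM in WT hearts (log2 fold change 1.53 ± 0.112, SE, limma adjusted p = 0.000313). Cdkn1a, which encodes the cell cycle inhibitor p21, was at 33.93, 37.55 and 30.42 FPKM in NS-DADm hearts, against 15.19, 10.68 and 15.82 FPKM in WT hearts (limma adjusted p = 0.00538). Groups did not overlap for any of these 4 genes, and each kept its call with any 1 library left out.

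Several other leading rises belong to the innate immune system. Cfp, which encodes properdin, the stabiliser of the alternative complement pathway, was at 12.8 ± 1.34 FPKM in NS-DADm and 5.23 ± 0.558 FPKM in WT hearts, with SD and n = 3 each (limma adjusted p = 0.000606). Ctss, which encodes the lysosomal protease cathepsin S, was at 31.86, 26.18 and 32.05 FPKM in NS-DADm hearts, against 13.6, 12.94 and 12.91 FPKM in WT hearts (limma adjusted p = 0.000313). The chemokine gene Ccl6 was at 31.7 ± 3.08 FPKM in NS-DADm and 14.9 ± 2.42 FPKM in WT hearts (limma adjusted p = 0.00352). Fcna, which encodes a ficolin of the lectin pathway, was at 6.8 ± 1.33 FPKM in NS-DADm and 1.91 ± 0.674 FPKM in WT hearts (limma adjusted p = 0.00827, and 0.0542 without WT replicate 2). The Fc receptor gene Fcgr4 was at 3.24 ± 1.34 and 0.92 ± 0.13 FPKM (limma adjusted p = 0.0237, and 0.0992, 0.105 and 0.0519 without WT replicate 1, 2 and 3). Mmp9, the gelatinase of matrix breakdown, was at 3.39, 3.26 and 3.05 FPKM in NS-DADm hearts, against 0.63, 0.22 and 0.26 FPKM in WT hearts, and as it passed the filter only through the NS-DADm libraries it could only rise (limma adjusted p = 0.000487). Agt, which encodes angiotensinogen, the precursor of angiotensin II, was at 7.9, 5.74 and 8.2 FPKM in NS-DADm hearts, against 3.07, 2.75 and 2.74 FPKM in WT hearts (limma adjusted p = 0.00326). Nfil3, a repressor at the output of the circadian clock, was at 12.7 ± 1.56 FPKM in NS-DADm and 5.32 ± 1.6 FPKM in WT hearts (limma adjusted p = 0.0161, and 0.0593 and 0.0854 without NS-DADm replicate 1 and WT replicate 2). The orphan nuclear receptor gene Nr4a1 was at 27.38, 26.21 and 15.55 FPKM in NS-DADm hearts, against 9.65, 7.66 and 8.73 FPKM in WT hearts. Its call (limma adjusted p = 0.0326) was lost in 5 of the 6 fits that left out a library, with adjusted p = 0.0662 and 0.086 without NS-DADm replicate 1 and 2 and 0.11, 0.145 and 0.0808 without WT replicate 1, 2 and 3. Lrrc52, a subunit that modulates large potassium channels, was at 5.65, 8.65 and 4.6 FPKM in NS-DADm hearts, against 1.11, 2.07 and 2.43 FPKM in WT hearts, and lost its call (limma adjusted p = 0.0388) without NS-DADm replicate 1, WT replicate 1 or WT replicate 2 (0.0978, 0.0828 and 0.136).

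**Figure D2:**
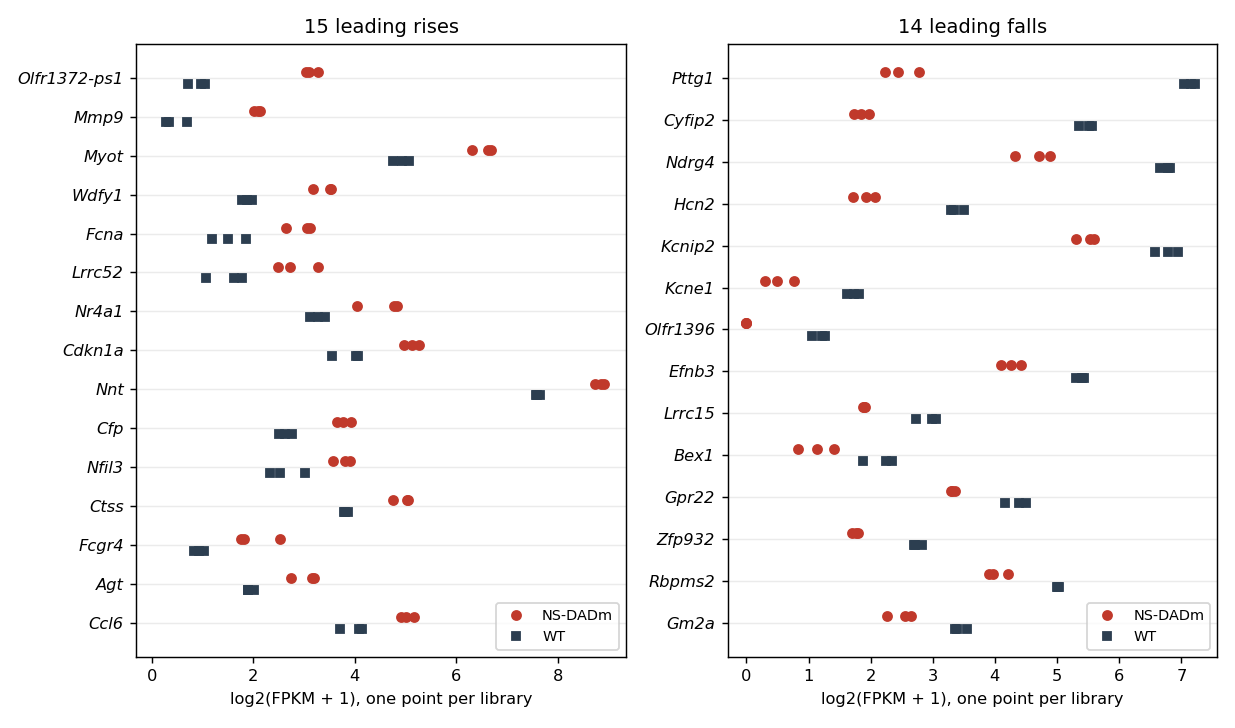
Expression of 15 leading rises and 14 leading falls on the scale log2(FPKM + 1), 1 point per library, NS-DADm as red circles and WT as dark squares, ordered by fitted fold change. The groups do not overlap for any gene, which the choice of these genes required, and Pttg1 and Cyfip2 are set apart from the other falls.

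The start sites of 4 of these genes are shown because nuclear receptors that recruit NCOR complexes bind DNA elements built on the letters AGGTCA. The windows are from RefSeq, GRCm38.p6, and run 5′ to 3′ on the gene's strand from 250 bases before to 50 bases after the start site. Capitals mark AGGTCA or its reverse complement TGACCT. Cyfip2 (chr11:46312309-46312608, minus strand) and Hcn2 (chr10:79716384-79716683, plus strand) fell, and Ctss (chr3:95526536-95526835, plus strand) and Ccl6 (chr11:83593038-83593337, minus strand) rose.
Cyfip2: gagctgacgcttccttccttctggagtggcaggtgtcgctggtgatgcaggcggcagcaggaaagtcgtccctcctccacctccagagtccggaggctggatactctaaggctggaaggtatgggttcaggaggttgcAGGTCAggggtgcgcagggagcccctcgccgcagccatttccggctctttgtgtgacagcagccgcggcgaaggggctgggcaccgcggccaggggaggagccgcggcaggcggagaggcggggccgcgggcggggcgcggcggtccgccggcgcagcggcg
Hcn2: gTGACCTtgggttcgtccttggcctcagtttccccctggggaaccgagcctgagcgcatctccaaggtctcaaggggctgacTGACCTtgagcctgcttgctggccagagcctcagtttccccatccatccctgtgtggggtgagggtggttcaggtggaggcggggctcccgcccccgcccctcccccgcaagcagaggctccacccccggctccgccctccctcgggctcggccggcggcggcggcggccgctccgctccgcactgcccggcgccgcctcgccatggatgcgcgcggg
Ctss: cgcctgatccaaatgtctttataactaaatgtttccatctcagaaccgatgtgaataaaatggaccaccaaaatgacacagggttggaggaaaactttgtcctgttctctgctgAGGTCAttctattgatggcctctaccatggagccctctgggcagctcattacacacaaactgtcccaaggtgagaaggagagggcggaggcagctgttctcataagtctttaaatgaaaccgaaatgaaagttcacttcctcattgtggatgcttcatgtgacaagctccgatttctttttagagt
Ccl6: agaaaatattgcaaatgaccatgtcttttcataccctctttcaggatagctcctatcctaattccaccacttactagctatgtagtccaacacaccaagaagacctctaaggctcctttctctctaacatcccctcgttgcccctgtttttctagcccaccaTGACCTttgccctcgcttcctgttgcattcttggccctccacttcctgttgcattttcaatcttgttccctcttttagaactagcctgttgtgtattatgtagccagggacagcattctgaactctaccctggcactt
These windows were picked because they hold the motif. Searched on both strands, AGGTCA occurred in 22 of 141 windows of called genes that were higher (15.6%, 109 genes with a window) and in 21 of 158 windows of called genes that were lower (13.3%, 124 genes). It occurred in 12.4% of the 11524 windows of tested genes and in 16.3% of all 32851 windows. Direct repeats of AGGTCA with 1 base (DR1) or 4 bases (DR4) between the copies occurred in no window of a called gene and in 0.0396% and 0.0152% of all windows.

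Chromosome 11, which carries the mutated Ncor1, held 44 of the 315 (4.41% of 997 tested genes, against 2.69% of all genes). Within 5 Mb of Ncor1 only 2 of 97 tested genes were called (2.06%), the kinase gene Map2k3 at 46.5 ± 3.27 FPKM in NS-DADm and 34.2 ± 1.37 FPKM in WT hearts and the myelin protein gene Pmp22 at 46.42, 44.84 and 42.49 FPKM in NS-DADm and 34.88, 32.72 and 37.28 FPKM in WT hearts (limma adjusted p = 0.0147 and 0.0327). In the stretch from 5 to 25 Mb towards the centromere, a window chosen after seeing the data, 16 of 100 were called (16.0%), 5 higher and 11 lower. With distances from the start of Ncor1 counted as negative towards the centromere, Pttg1 lies there at -18.9 Mb, Cyfip2 at -16.1 Mb and Ccng1, a cyclin gene induced by p53, at -21.6 Mb. Ccng1 was at 216.14, 238.19 and 241.84 FPKM in NS-DADm hearts, against 421.59, 407.1 and 377.22 FPKM in WT hearts (log2 fold change -0.79 ± 0.0685, SE, limma adjusted p = 0.000606). The pseudogene Olfr1372-ps1 lies at -10.2 Mb and was the largest rise, at 7.62, 8.72 and 7.18 FPKM in NS-DADm hearts, against 0.64, 0.97 and 1.08 FPKM in WT hearts (limma adjusted p = 3.15e-05). On the other side, 5 to 25 Mb towards the telomere, 6 of 268 were called (2.24%). With any library left out, 10 to 15 genes of the stretch towards the centromere were called, 10.2% to 15.5% of those tested, where 0.724% to 2.15% of all genes were. Of 31 called genes with a 2-fold change or more on the log2(FPKM + 1) scale, 7 lie on chromosome 11, which holds 997 of the 11705 tested genes.

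**Figure D3:**
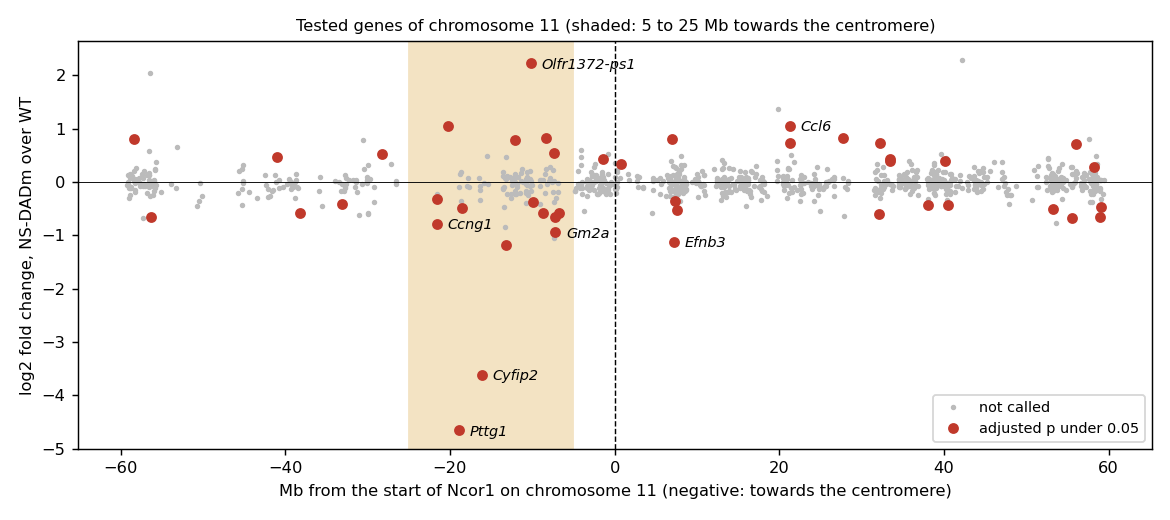
Log2 fold change, NS-DADm over WT, of the tested genes of chromosome 11 against their distance in Mb from the start of Ncor1, with called genes in red and the stretch of 5 to 25 Mb towards the centromere shaded. The 16 called genes of the shaded stretch include Pttg1 and Cyfip2, at log2 fold changes of -4.66 and -3.62.

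The X chromosome held 22 called genes of 347 tested (6.34%, against 2.69% of all genes). Of the 22, 20 were lower in NS-DADm hearts, where 1.43% of all genes were lower and 1.26% higher. Of these 20, Dcaf12l1, Tceal7 and Zc4h2 passed the filter only through the WT libraries and could only be lower. The 20 included, chosen as examples after their values were seen, the membrane protein gene Tspan7, at 59.29 FPKM in NS-DADm and 86.84 FPKM in WT hearts (means of 3), the chromatin protein gene Hmgb3, at 36.13 and 49.77 FPKM, and the muscle kinase gene Srpk3, at 11.28 and 16.19 FPKM. Cfp and Klhl34 were the X-linked genes that were higher. The median log2 fold change over the X chromosome was -0.08, against -0.02 over all genes. Between 3 and 13 X-linked genes were lower when 1 library was left out. In these fits 1.48% to 4.75% of the tested X-linked genes were called, where 0.724% to 2.15% of all genes were. With median-of-ratios scaling 17 were lower and 5 higher. Xist, the RNA of the inactive X chromosome, was at 16.19, 15.11 and 15.72 FPKM in NS-DADm hearts, against 17.03, 18.95 and 20.56 FPKM in WT hearts, so all 6 libraries carry it and no library stands apart by sex.

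Genes of cardiac ion channels and conduction moved mostly down. Of 29 tested members 7 were lower and 2 higher (percent called among all genes 1.43% and 1.26%), 24 of 29 had a negative fold change, and the median log2 fold change was -0.23, against -0.02 over all genes. Kcnip2 encodes KChIP2, the subunit that brings Kv4 channels of the transient outward current to the membrane. It was at 47.37, 45.03 and 38.64 FPKM in NS-DADm hearts, against 109.54, 122.48 and 94.6 FPKM in WT hearts, 2.49-fold lower (log2 fold change -1.29 ± 0.105, SE, limma adjusted p = 0.000606). Hcn2, a pacemaker channel opened by hyperpolarisation and cAMP, was at 2.79, 2.28 and 3.2 FPKM in NS-DADm hearts, against 10.34, 8.77 and 9.11 FPKM in WT hearts, 3.41-fold lower (log2 fold change -1.47 ± 0.109, SE, limma adjusted p = 0.000313). Both were separate between the groups and were called with any 1 library left out. Kcne1, the subunit of the slow delayed rectifier, was at 0.71, 0.23 and 0.4 FPKM in NS-DADm hearts, against 2.53, 2.07 and 2.31 FPKM in WT hearts (limma adjusted p = 0.00368). It is counted among the 7 lower members, but it passed the filter only through the WT libraries and could only fall. The gap junction genes Gja1 (the main connexin of working ventricle) and Gjc1 fell as well. Gja1 was at 88.79, 81.59 and 95.82 FPKM in NS-DADm hearts, against 124.04, 139.51 and 111.65 FPKM in WT hearts, and Gjc1 at 8.67, 7.95 and 8.06 FPKM, against 11.82, 10.86 and 11.44 FPKM (limma adjusted p = 0.0275 and 0.0184). Gja1 kept its call in 2 of the 6 fits with a library left out. The calcium channel genes Cacna2d1 and Cacna1g were at 29.7 ± 1.76 and 1.54 ± 0.279 FPKM in NS-DADm hearts, against 37.9 ± 1.61 and 2.88 ± 0.501 FPKM in WT hearts (limma adjusted p = 0.0309 and 0.0425). The members that rose were Scn4b, a beta subunit of the sodium channel, at 24.3 ± 3.83 FPKM in NS-DADm and 14.6 ± 2.08 FPKM in WT hearts, and Kcnd2, the Kv4.2 pore of the transient outward current, at 12.11, 13.62 and 10.25 FPKM in NS-DADm and 8.01, 8.67 and 8.55 FPKM in WT hearts (limma adjusted p = 0.0313 and 0.0453). With any 1 library left out, 2 to 5 members were lower and 0 to 1 higher. In bulk tissue fewer cells of a type and less RNA per cell cannot be told apart. Cardiomyocyte markers had 1 of 16 lower and none higher, and the ventricular marker sum was 25380 ± 2718 FPKM in NS-DADm and 26420 ± 3139 FPKM in WT hearts, with atrial markers as given above. Their part in these changes was not tested beyond the comparisons within atrial-rich and atrial-poor libraries, where Kcnip2 was lower by 1.13 and 1.34 on the log2 scale (log2 fold change -1.13 and -1.34).

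Calcium handling and adrenergic genes gave fewer calls, most of them lower. Of 28 tested calcium handling genes 3 were lower and none higher, 2 lower with median centring or median-of-ratios scaling and 1 without NS-DADm replicate 2 or 3 or WT replicate 1 or 2. Over all genes 1.43% were lower and 1.26% higher. The medians of the calcium and adrenergic lists were -0.05 and -0.07 on the log2 scale, against -0.02 over all genes. Hrc, the histidine-rich calcium-binding protein of the sarcoplasmic reticulum, was at 379.38, 352.65 and 369.23 FPKM in NS-DADm hearts, against 505.7, 571.05 and 501.03 FPKM in WT hearts (log2 fold change -0.52 ± 0.0682, SE, limma adjusted p = 0.0063). S100a1, a calcium sensor that enhances contraction, was at 892.7 ± 65.0 FPKM in NS-DADm and 1155 ± 89.1 FPKM in WT hearts, and the kinase subunit Camk2b at 1.79 ± 0.427 and 3.39 ± 0.37 FPKM (limma adjusted p = 0.042 and 0.0313). The ryanodine receptor gene Ryr2, named after its values were seen, was at 73.55, 81.87 and 88.45 FPKM in NS-DADm and at 91.08, 96.27 and 112.44 FPKM in WT hearts, without passing (limma adjusted p = 0.139). Of 23 adrenergic, natriuretic and renin-angiotensin genes 3 were lower and 1, Agt, higher. Adcy5, the main adenylyl cyclase of cardiomyocytes, was at 12.2, 11.99 and 12.73 FPKM in NS-DADm hearts, against 18.55, 18.03 and 21.78 FPKM in WT hearts (log2 fold change -0.62 ± 0.0815, SE, limma adjusted p = 0.0063). The alpha-1 adrenergic receptor genes Adra1b and Adra1d were at 9.31 ± 0.553 and 0.61 ± 0.0954 FPKM in NS-DADm hearts, against 13.4 ± 1.17 and 1.62 ± 0.0265 FPKM in WT hearts (limma adjusted p = 0.0184 and 0.0129), and Adra1d passed the filter only through the WT libraries. Without WT replicate 1 or 2 only 1 of these 3 members, Adcy5, was called. Adra1d could not be tested with a WT library left out, and it was called in all 3 fits that could test it.

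Sarcomere and Z-disc genes moved in both directions, 3 of 33 higher and 3 lower, with 1 lower without NS-DADm replicate 2 or 3 or WT replicate 1 or 2. These and the fetal program counts below stand beside 1.26% higher and 1.43% lower over all genes. Beside Myot, the Z-disc genes Flnc (filamin C) and Mypn (myopalladin) rose. Flnc was at 53.41, 56.69 and 57.71 FPKM in NS-DADm hearts, against 37.81, 35.46 and 38.15 FPKM in WT hearts, and Mypn at 49.52, 52.23 and 50.15 FPKM, against 37.92, 39.09 and 40.68 FPKM (limma adjusted p = 0.00206 and 0.0151). The members that fell were Tpm1, alpha-tropomyosin of the thin filament, Mybpc3, cardiac myosin-binding protein C, and Myom2, an M-band protein. Tpm1 was at 6250.89, 7083.02 and 6532.31 FPKM in NS-DADm hearts, against 9548.59, 9488.34 and 9233.37 FPKM in WT hearts (log2 fold change -0.51 ± 0.0657, SE, limma adjusted p = 0.00573). Mybpc3 was at 758.9 ± 20.2 FPKM in NS-DADm and 925.4 ± 11.9 FPKM in WT hearts, and Myom2 at 225.1 ± 30.8 and 310.8 ± 21.8 FPKM (limma adjusted p = 0.0297 and 0.0418). Of 18 fetal program and wall stress genes 3 rose and none fell, with 1 higher without WT replicate 1. They were Uck2, a uridine-cytidine kinase, at 29.3 ± 3.23 FPKM in NS-DADm and 17.4 ± 1.35 FPKM in WT hearts, the calcineurin regulator Rcan1, at 42.1 ± 1.47 and 32.5 ± 3.04 FPKM, and the stress hormone gene Gdf15, at 2.14 ± 0.341 and 0.837 ± 0.203 FPKM (limma adjusted p = 0.00538, 0.0397 and 0.0179). Other well-known members, named after their values were seen, were not called. Nppb was at 246.45, 218.55 and 190.46 FPKM in NS-DADm and at 166.49, 238.9 and 148.67 FPKM in WT hearts, and Myh7 at 61.25, 28.98 and 57.05 FPKM, against 23.68, 32.08 and 33.2 FPKM (limma adjusted p = 0.509 and 0.38). Skeletal actin, Acta1, was at 376.38, 261.04 and 748.38 FPKM in NS-DADm hearts, against 191.98, 137.62 and 155.36 FPKM in WT hearts. Its groups did not overlap but it did not pass (limma adjusted p = 0.208), and its highest library was the one richest in atrial markers.

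Some macrophage markers were higher in NS-DADm hearts. Among 18 tested markers of macrophages and monocytes there were 6 higher and 0 lower (1.26% and 1.43% among all genes). A positive fold change was seen in 18 of 18 (5119 of 11705 among all genes), and the median log2 fold change was 0.41. Their summed level was 567.6, 482.3 and 555.1 FPKM in NS-DADm hearts, against 407.4, 389.3 and 363.8 FPKM in WT hearts. The complement genes C1qa, C1qb and C1qc, which form the C1q recognition molecule and are made by tissue macrophages, moved together. C1qa was at 86.75, 79.27 and 85.15 FPKM in NS-DADm hearts, against 62.88, 58.43 and 59.6 FPKM in WT hearts (log2 fold change 0.47 ± 0.0611, SE, limma adjusted p = 0.00629). C1qb was at 72.2 ± 8.08 FPKM in NS-DADm and 50.8 ± 0.61 FPKM in WT hearts, and C1qc at 67.0 ± 6.39 and 45.0 ± 1.52 FPKM (limma adjusted p = 0.0164 and 0.00709). The growth factor receptor gene Csf1r was at 16.8, 16.02 and 15.39 FPKM in NS-DADm hearts, against 12.59, 10.76 and 12.65 FPKM in WT hearts (limma adjusted p = 0.036). The coreceptor gene Cd14 was at 5.0, 5.93 and 4.44 FPKM in NS-DADm hearts, against 3.23, 3.12 and 2.92 FPKM in WT hearts (limma adjusted p = 0.0248). Among 28 inflammation and chemokine genes 5 rose and none fell. The central complement component C3 was at 67.73, 53.36 and 69.4 FPKM in NS-DADm hearts, against 29.12, 26.22 and 39.22 FPKM in WT hearts (log2 fold change 1.0 ± 0.161, SE, limma adjusted p = 0.0275), and C4b at 8.73, 5.24 and 7.19 FPKM, against 3.06, 3.0 and 3.43 FPKM (limma adjusted p = 0.016). C3 kept its call in 2 of the 6 fits with a library left out. The chemokines Ccl9 and Cxcl14 were at 7.81 ± 0.469 and 15.3 ± 1.7 FPKM in NS-DADm hearts, against 4.35 ± 0.47 and 10.7 ± 0.734 FPKM in WT hearts (limma adjusted p = 0.00538 and 0.0313). With any 1 library left out, 3 to 5 macrophage markers and 2 to 6 inflammation genes were higher. T and NK cells and B cells had 1 tested marker each, which was not called, and their sums were 2.6 to 6.6 and 1.9 to 3.9 FPKM in NS-DADm hearts, against 2.9 to 9.3 and 1.8 to 3.3 FPKM in WT hearts. Mast cell markers summed to 2.9 to 3.4 FPKM in NS-DADm and 4.5 to 5.4 FPKM in WT hearts, and erythroid markers to 3395.7 to 6684.8 and 6712.7 to 7975.6 FPKM, so that both sums were lower in every NS-DADm library.

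Interferon and matrix genes gave no call, where 1.26% of all genes were higher and 1.43% lower. Fold changes were positive for 36 of 38 interferon-stimulated, 14 of 15 antigen presentation and 31 of 37 matrix genes, against 5119 of 11705 among all genes. Their medians were 0.2, 0.39 and 0.17 on the log2 scale, against -0.02 over all genes. With 1 library left out, 0 to 2 interferon-stimulated and 0 to 2 antigen presentation genes were higher. None of 38 interferon-stimulated genes and none of 15 antigen presentation genes passed limma's adjusted threshold, where 8 and 5 had an unadjusted p under 0.05, all of them higher. Those of smallest p among the interferon genes were Irf9, at 14.1 ± 1.45 FPKM in NS-DADm and 10.7 ± 0.709 FPKM in WT hearts, and Ifi27, at 28.0 ± 6.66 and 15.4 ± 2.38 FPKM (limma adjusted p = 0.0629 and 0.0846). None of 37 matrix and fibrosis genes was called, with 9 higher and 3 lower at an unadjusted p under 0.05 and 1 higher with median centring or median-of-ratios scaling and 3 without WT replicate 3. The matricellular gene Ctgf was at 104.56, 79.65 and 108.66 FPKM in NS-DADm hearts, against 36.57, 35.11 and 60.6 FPKM in WT hearts (ratio of means 2.21, limma adjusted p = 0.0824), and its call appeared when the atrial term was added (limma adjusted p = 0.000863). Col1a1, the main collagen chain, was at 27.4 ± 3.33 FPKM in NS-DADm and 22.4 ± 2.73 FPKM in WT hearts (limma adjusted p = 0.2).

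Stress-responsive genes rose in small numbers and none fell. For the counts below, 1.26% of all tested genes were called higher and 1.43% lower. Of 21 immediate early genes, which are induced within minutes of a stimulus, 6 rose. All 21 of 21 had a positive fold change, against 5119 of 11705 among all genes. Maff was at 8.77, 8.49 and 6.9 FPKM in NS-DADm hearts, against 4.26, 3.13 and 4.01 FPKM in WT hearts (limma adjusted p = 0.00613), and Myc at 2.42, 3.26 and 3.11 FPKM, against 1.6, 1.44 and 1.53 FPKM (limma adjusted p = 0.0222). Ier5, Junb and Zfp36 were at 19.4 ± 0.37, 11.8 ± 0.864 and 36.1 ± 1.28 FPKM in NS-DADm hearts, against 12.9 ± 2.04, 8.16 ± 0.94 and 28.4 ± 1.82 FPKM in WT hearts (limma adjusted p = 0.0217, 0.0294 and 0.0326). The count was 1 to 4 with any 1 library left out. Of 32 NRF2 and antioxidant genes 4 rose, with 2 higher without NS-DADm replicate 3 or WT replicate 2 or 3 and 1 without WT replicate 1. Nqo1, a quinone reductase and a standard NRF2 target, was at 75.52, 87.33 and 81.69 FPKM in NS-DADm hearts, against 44.29, 44.98 and 37.49 FPKM in WT hearts (log2 fold change 0.93 ± 0.0845, SE, limma adjusted p = 0.000761, at most 0.00498 with any library left out). The metallothionein Mt1, the peroxidase Gpx1 and the heme oxygenase Hmox1 were at 503.6 ± 53.3, 83.3 ± 8.37 and 11.5 ± 1.56 FPKM in NS-DADm hearts, against 340.5 ± 42.2, 58.5 ± 5.68 and 8.12 ± 0.39 FPKM in WT hearts (limma adjusted p = 0.0261, 0.0275 and 0.0423). The unfolded protein response and the integrated stress response were covered by 33 tested genes, of which 4 were higher. They were the transcription factors Atf4 and Atf5, Gdf15 and the mitochondrial folate enzyme Mthfd2. Atf5 was at 68.43, 54.48 and 72.46 FPKM in NS-DADm hearts, against 42.93, 42.72 and 37.28 FPKM in WT hearts (limma adjusted p = 0.0179), and Mthfd2 at 3.34, 2.47 and 4.68 FPKM, against 0.84, 1.28 and 1.51 FPKM (limma adjusted p = 0.0288). Atf4 was at 72.0 ± 1.3 FPKM in NS-DADm and 55.5 ± 5.32 FPKM in WT hearts (limma adjusted p = 0.0341). No member of this list was called without NS-DADm replicate 1 or WT replicate 1. The mitophagy receptor Bnip3 was at 179.0, 201.53 and 191.97 FPKM in NS-DADm hearts, against 118.42, 132.55 and 135.04 FPKM in WT hearts, and the lysosomal protease gene Ctsl at 56.5 ± 2.89 and 40.4 ± 1.51 FPKM (limma adjusted p = 0.00538 and 0.0063).

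**Figure D4:**
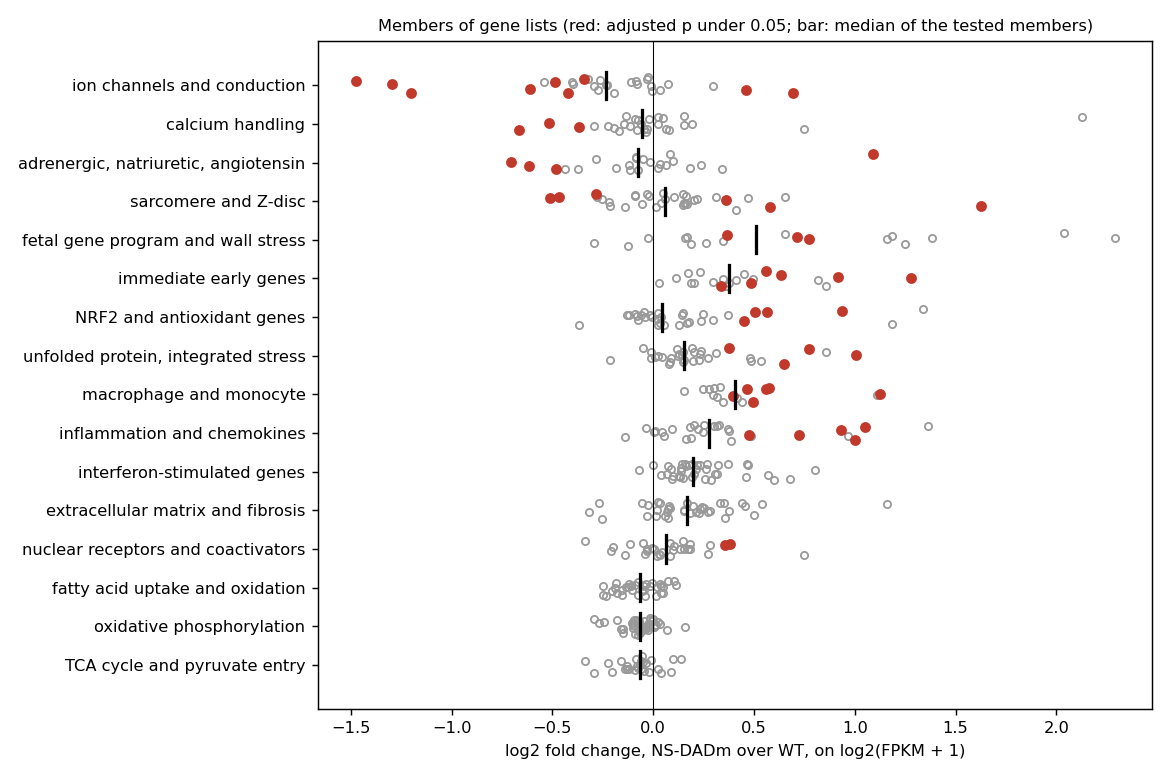
Log2 fold change, NS-DADm over WT, of every tested member of 16 gene lists, with called members in red, the others as open circles, and the median of the tested members as a bar. Called ion channel and calcium genes lie mostly below 0, called stress and macrophage genes above 0, and no member of the oxidation lists is called.

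Genes of oxidative energy metabolism gave no call. None of 43 genes of oxidative phosphorylation, 34 of fatty acid uptake and oxidation, 27 of the TCA cycle and 23 of branched chain amino acid breakdown was called. The shares over all genes were 1.26% higher and 1.43% lower. At an unadjusted p under 0.05, 7, 8, 7 and 4 of them were lower and 0, 0, 1 and 2 higher, and without WT replicate 3 the oxidative phosphorylation count was 2 lower. The medians were -0.07, -0.06, -0.07 and -0.09 on the log2 scale. Sdha, a subunit of complex II, was at 473.5 ± 32.5 FPKM in NS-DADm and 579.1 ± 22.9 FPKM in WT hearts (log2 fold change -0.29 ± 0.0679, SE, limma adjusted p = 0.0588). Acadm, which oxidises medium-chain fatty acids, was at 654.4 ± 47.5 and 770.3 ± 45.1 FPKM (limma adjusted p = 0.128). Glycogen genes held a few calls, which were not kept with every library left out (0 to 2 of 29 glycolysis and glycogen genes higher and 0 to 1 lower). Gys1, the glycogen synthase of muscle, was at 60.52, 67.17 and 67.76 FPKM in NS-DADm hearts, against 44.57, 48.79 and 48.92 FPKM in WT hearts, and Ugp2, which makes its substrate UDP-glucose, at 179.0 ± 16.6 and 128.9 ± 5.51 FPKM (limma adjusted p = 0.0122 and 0.0151). Pfkfb1, an enzyme that sets the level of fructose bisphosphate, fell, at 8.08 ± 1.14 FPKM in NS-DADm and 12.4 ± 1.57 FPKM in WT hearts (limma adjusted p = 0.0397). The ketone carrier gene Slc16a7 was lower, at 1.37 ± 0.0451 and 2.6 ± 0.512 FPKM (limma adjusted p = 0.041).

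Of 30 nuclear receptors and coactivators 2 rose and none fell (1.26% and 1.43% among all genes), and none was called without NS-DADm replicate 1 or 2 or WT replicate 1 or 2. Ppara, the receptor that drives fatty acid oxidation genes, was at 26.12, 26.59 and 23.21 FPKM in NS-DADm hearts, against 19.24, 17.96 and 20.49 FPKM in WT hearts (log2 fold change 0.38 ± 0.0769, SE, limma adjusted p = 0.0369). Pparg, which is best known from adipocytes, was at 9.33, 10.95 and 10.24 FPKM in NS-DADm hearts, against 7.39, 7.9 and 7.82 FPKM in WT hearts (limma adjusted p = 0.0498). The coactivator gene Ppargc1a was at 47.02, 60.92 and 32.18 FPKM in NS-DADm hearts, against 23.63, 25.28 and 31.25 FPKM in WT hearts, which did not overlap and did not pass (limma adjusted p = 0.189). Of 19 clock genes Nfil3 alone was called. Of 19 thyroid hormone responsive genes Kcnd2 and Hr were higher and Hcn2 lower. With 1 library left out 0 to 2 genes of the list were higher, with 0 without NS-DADm replicate 1, WT replicate 2 or WT replicate 3, and Kcnd2 kept its call in 1 and Hr in 2 of the 6 fits. The corepressor Hr was at 8.9 ± 0.939 FPKM in NS-DADm and 5.46 ± 0.855 FPKM in WT hearts (limma adjusted p = 0.0248). None of 18 cardiac transcription factor genes and none of 16 histone acetyltransferase and bromodomain genes was called, where at an unadjusted p under 0.05 the transcription factors had 3 higher and 6 lower and the acetyltransferase list 2 lower.

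The remaining lists gave few calls, to be read against 1.26% higher and 1.43% lower among all genes. Among 28 apoptosis and p53 target genes Bnip3 was higher and Ccng1 lower, of 24 atrophy, FOXO and autophagy genes Bnip3 and Ctsl were higher, and of 18 glucocorticoid responsive genes Cdkn1a and Mt1. Cdkn1a was also the 1 call among 26 cell cycle genes, and Plin3, a coat protein of lipid droplets, at 94.4 ± 3.96 FPKM in NS-DADm and 76.7 ± 2.24 FPKM in WT hearts (SD, n = 3 each), the 1 call among 23 lipid droplet genes. Plin3 kept its call only without WT replicate 3, at a limma adjusted p of up to 0.128 in the other 5 fits with a library left out. None of 28 genes of fatty acid and cholesterol synthesis and none of 19 heat shock genes passed limma's adjusted threshold, with 4 and 1 higher and 0 and 1 lower at an unadjusted p under 0.05. No mitochondrially encoded gene is listed. Of the cell type lists not yet described, the neutrophil list had 1 of 2 tested markers higher (Mmp9), the mast cell list 1 of 2 lower (Mcpt4, which passed the filter only through the WT libraries, could only fall and kept its call in 1 of the 3 fits with a library left out that could test it) and the conduction system list 1 of 3 lower (Cacna1g). None was called among the markers of endothelium (15 tested), lymphatic endothelium (6), fibroblasts (15), myofibroblasts (9), smooth muscle and pericytes (12), Schwann and neuronal cells (3), white (8) and brown adipocytes (5), mesothelium and epicardium (3), skeletal muscle (4), erythroid cells (6) and atrial cardiomyocytes (12), and none from lung and thymus was tested.

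NS-DADm hearts were set beside HDAC3 KO hearts, in which Hdac3 RNA itself was reduced (log2 fold change -1.71). In the KO experiment 7775 of 11810 tested genes were called (65.8%), 38.2% higher and 27.6% lower. Of the KO calls that were also tested in NS-DADm hearts 3.66% were called there, against 2.69% of all genes tested there. Of the 315 NS-DADm calls, 290 were tested in the KO experiment, where 225 were called in the same direction, 35 in the opposite one and 30 not at all, so 89.7% of them were called against 65.8% of all genes there. The effects were compared directly in 1 fit of all 12 libraries, each mutant against its own WT. The effects differed for 5348 of 11662 genes (45.9%), of which 2063 were more positive and 3285 more negative in NS-DADm hearts, and 2773 and 2476 with median centring or 2542 and 2700 with median-of-ratios scaling. Each table was normalized separately, so only effects and not levels were compared. In the KO experiment 2 sex-linked genes were tested and 2 were higher in KO hearts, at a median log2 fold change of 4.97. Whether KO hearts and their WT differ in sex, and the part of sex in these differences, was not tested.

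Among the 26 leading genes with a value in both experiments, some moved in opposite directions. Nnt had a log2 fold change of 1.23 in NS-DADm and -1.68 in KO hearts, a difference of 2.91 ± 0.0691 (SE, limma adjusted p = 2.7e-12), and Myot one of 1.62 and -1.59, a difference of 3.22 ± 0.147 (limma adjusted p = 1.75e-09). Agt and Lrrc52 were likewise higher in NS-DADm and lower in KO hearts, with differences of 2.34 ± 0.15 and 2.35 ± 0.292 (SE, limma adjusted p = 3.22e-08 and 2.22e-05). Rbpms2, Gm2a, Zfp932 and Ndrg4 were lower in NS-DADm and higher in KO hearts, with differences of -1.6, -1.28, -1.25 and -2.3. Pttg1 and Cyfip2 fell in both, by 1.44 and 0.67 on the log2 scale in KO hearts (log2 fold change -1.44 and -0.67), and fell further in NS-DADm hearts (difference -3.21 ± 0.148 and -2.95 ± 0.0982, SE, limma adjusted p = 2.27e-09 and 1.01e-10). For other genes the KO effect was the larger one in the same direction. Efnb3 had a log2 fold change of -1.12 in NS-DADm and -5.42 in KO hearts, Gpr22 of -1.03 and -3.32 and Ctss of 1.13 and 2.64, and the difference passed for each (limma adjusted p = 8e-11, 2.36e-09 and 8.82e-08). For some genes no difference was called. Kcnip2 had a log2 fold change of -1.29 in NS-DADm and -1.36 in KO hearts, a difference of 0.07 ± 0.12 (SE, limma adjusted p = 0.69), and Cfp of 1.15 and 1.22, a difference of -0.08 ± 0.124 (SE, limma adjusted p = 0.643). Kcne1, Nfil3 and Nr4a1 were among these too, at differences of 0.29 ± 0.164, 0.34 ± 0.192 and 0.23 ± 0.262 (SE), and Tbl1xr1 rose in both, by 0.76 in NS-DADm and 0.40 in KO hearts, with a difference of 0.36 ± 0.106 (SE, limma adjusted p = 0.0127).

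**Figure D5:**
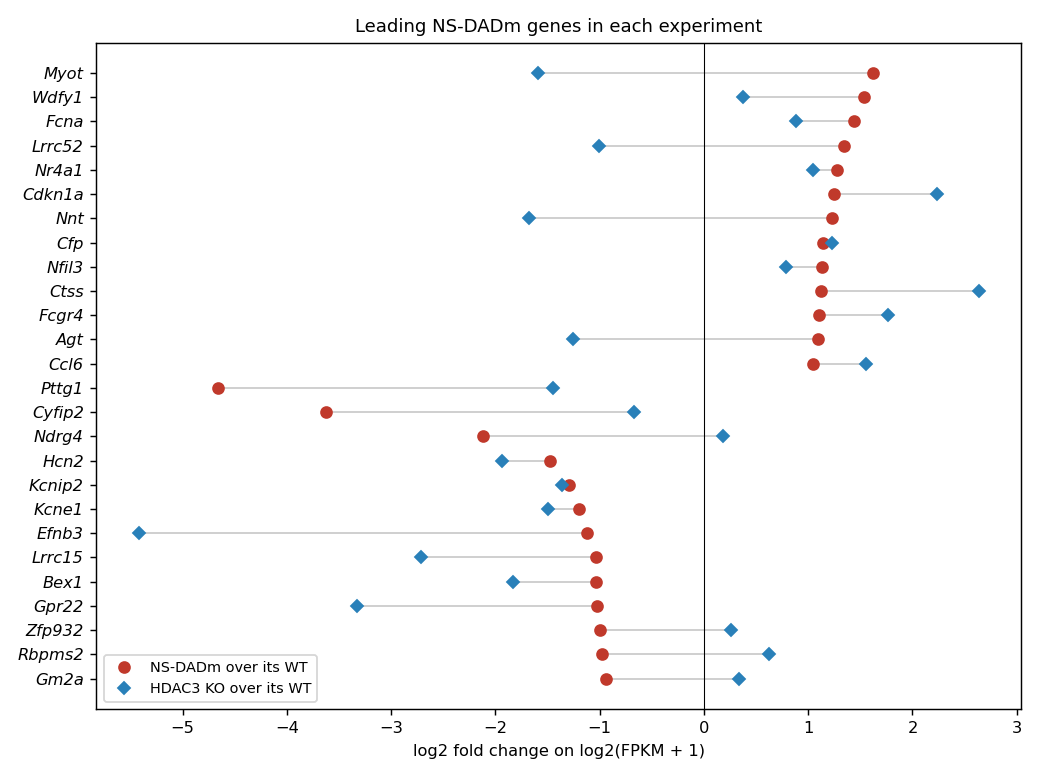
Log2 fold changes on log2(FPKM + 1) of 26 of the 29 leading NS-DADm genes, NS-DADm over its WT as red circles and HDAC3 KO over its own WT as blue diamonds, joined by a line for each gene. Nnt, Myot, Agt and Lrrc52 lie on opposite sides of 0, Kcnip2 and Cfp nearly coincide, and Efnb3 lies at -5.42 in KO and -1.12 in NS-DADm hearts.

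The lists gave the following counts in the 2 experiments, to be read against shares over all genes of 1.26% higher and 1.43% lower in NS-DADm hearts, 38.2% higher and 27.6% lower in KO hearts and 45.9% with a called difference. Oxidative phosphorylation had 0 of 43 genes lower in NS-DADm and 43 of 43 lower in KO hearts, and the effects differed for 42 of them. Fatty acid uptake and oxidation had 0 of 34 and 28 of 34 genes lower, with 28 differences called. Matrix and fibrosis genes had 0 of 37 higher in NS-DADm and 37 of 39 higher in KO hearts, with 35 differences called. Ion channel genes had 7 of 29 lower in NS-DADm and 25 of 28 lower in KO hearts, with 20 differences called. Macrophage markers had 6 of 18 higher in NS-DADm and 19 of 20 higher in KO hearts, at medians of 0.41 and 2.23 on the log2 scale, with 17 differences called. Immediate early genes had 6 of 21 and 20 of 23 higher, with 11 differences called, a share near that over all genes. Nuclear receptor genes had 2 of 30 higher and none lower in NS-DADm hearts, and 4 of 30 higher and 17 lower in KO hearts. Among them Ppara had a log2 fold change of 0.38 in NS-DADm and -0.99 in KO hearts, a difference of 1.37 ± 0.0941 (SE, limma adjusted p = 5.91e-08).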

How the data were processed

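Total RNA of mouse hearts was sequenced on an MGISEQ-2000 to an average depth of 60 M reads (M, mega), per the labels' protocols, with SOAPnuke 1.5.2 as read filter. RSEM 1.2.12, HISAT2 2.0.4, DESeq2 1.4.5, Bowtie2 2.2.5 and the build GRCm38.p6 are listed per the submitters' processing notes, without their roles. Expression was deposited by the authors as FPKM per gene, with empty or #N/A cells taken as 0. The authors' deposited table also holds their own q-values and fold changes, which were used only to count its calls (q under 0.05, change above 25%). Of 17857 genes, 24 whose symbols had become dates were left out, and 3 FPKM columns of no sample in the KO table were not used. Each comparison used limma 3.58.1 (R 4.3.3), with trend and robust estimation, on log2(FPKM + 1), which understates fold changes of low genes, and adjusted p-values over all tested genes by Benjamini-Hochberg. The pipeline was tested on simulated data. Genes named are the complex members, the 15 largest rises and falls, up to 4 called members of each of 56 lists (35 pathways, 21 cell types) and called genes near Ncor1. Some genes that these rules name are not reported here. Members and lists were chosen with earlier results of these data known. Positions came from GENCODE M21. Alternatives changed the pseudocount, filter, scaling, variance model, libraries and block.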

Additional observations from a re-analysis of the deposited data

Results flagged for a closer look

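For 20 of the 28 leading genes in the fit of both experiments, the NS-DADm effect differed from the HDAC3 KO effect, each against its own WT (limma, adjusted p under 0.05). Over all 11662 genes of that fit the share was 45.9%. The leading genes were chosen by their NS-DADm effects, which enter the difference, so a higher share was built in. Mmp9 passed the filter of the NS-DADm comparison only through the NS-DADm libraries. The differences are NS-DADm minus KO effects on the log2(FPKM + 1) scale. Among genes that were higher in NS-DADm hearts, the difference was 3.22 for Myot, 2.91 for Nnt, 2.35 for Lrrc52, 2.34 for Agt, 1.71 for Mmp9, 1.16 for Wdfy1, -0.5 for Ccl6, -0.67 for Fcgr4, -0.99 for Cdkn1a and -1.51 for Ctss. Among genes that were lower in NS-DADm hearts, it was 4.3 for Efnb3, 2.3 for Gpr22, 1.68 for Lrrc15, 0.46 for Hcn2, -1.25 for Zfp932, -1.28 for Gm2a, -1.6 for Rbpms2, -2.3 for Ndrg4, -2.95 for Cyfip2 and -3.21 for Pttg1. With median centring or median-of-ratios scaling 21 genes differed, where Fcgr4 was not called and Bex1 and Fcna were. The tables were normalized separately and the WT groups are different hearts, so experiment and genotype cannot be told apart in the level of any 1 gene. Sex-linked genes were also higher in KO hearts, as given above, and the part of sex in these differences was not tested.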

How the results depend on the processing

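The count of genes higher in NS-DADm hearts was 148 and of genes lower 167. Without a filter on low values, where 17833 genes were tested, these were 70 and 94. With the spread estimated from all 12 libraries they were 547 and 593. In the libraries low in atrial markers they were 87 and 95, and in those high in atrial markers 28 and 13, with fewer libraries in each fit. Leaving out 1 library at a time gave 47 to 120 higher and 37 to 128 lower. With a replicate block they were 258 and 238, and 293 of the 315 genes stayed called, but libraries of the same number correlated in their deviations at 0.00662, 0.376 and 0.435, so the numbers were not taken to pair the libraries. Median centring gave 191 and 163, median-of-ratios scaling 195 and 151, and the fit without trend and robust estimation 106 and 115. The other pseudocounts, the filter at 5 FPKM, empty cells left out and the atrial term kept both counts within 1.5 times. The count of genes whose effect differed from that in KO hearts stayed within 1.5 times of 5348 under every alternative run. For called genes named, 1130 values kept their call and direction over the alternatives and 321 fell short of the threshold. None of them turned round. A called gene whose groups do not overlap must keep its direction when libraries are left out. The alternatives also reuse the libraries that made the calls, so this count is no independent check. Of uncalled genes, the ranges with 1 library left out crossed 0 for Hdac3 (-0.03 to 0.06), Ccl5 (-0.03 to 0.73), Cd79a (-0.01 to 0.33), S100b (-0.29 to 0.03) and Tnni2 (-0.38 to 0.11). Hdac3 was at -0.01 without NS-DADm replicate 1, -0.01 without WT replicate 2, -0.03 without WT replicate 3 and -0.07 in atrial-poor libraries. Ccl5 was at -0.03 without WT replicate 3, Tnni2 at 0.11 without WT replicate 3, and Cd79a at -0.01 without WT replicate 1 and -0.02 with the atrial term. S100b was at 0.03 without WT replicate 2 and 0.14 in atrial-rich libraries, and Pdpn at -0.04 in atrial-poor libraries. The cause of these shifts was not tested. With 3 libraries a group, an exact permutation test of 1 gene cannot go below 0.1.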
